A study of Mus musculus with 2 samples.

Results

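Chemokines are small secreted proteins that direct the movement of leukocytes, and they are sorted into CC, CXC, CX3C and XC classes by the spacing of their first cysteines. They act through G protein-coupled receptors on the responding cell, while atypical receptors such as Cxcr7 bind chemokines without coupling to G proteins and take them out of the surroundings. In skeletal muscle, chemokines are made by muscle fibres, resident macrophages, vessel cells and connective tissue cells, and they are best known there for recruiting leukocytes after injury. The probes described here are those whose gene name on the array begins with Ccl, Ccr, Cxcl, Cxcr, Cx3cl, Cx3cr or Xcl followed by a digit. This gave 63 probes for 50 genes, of 41173 probes for 27745 gene names, and comprised 43 probes for 34 ligands and 20 probes for 16 receptors.

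RNA of gastrocnemius (GAS) muscle was compared between WT mice and mice lacking GDE5 in skeletal muscle (*Gde5* skKO), all C57BL/6 males of 15 weeks of age on a normal diet. The accompanying publication places its arrays after a glucose injection and mentions further data from fasted mice, and the labels do not say which state these arrays hold. GDE5, encoded by *Gpcpd1*, hydrolyses glycerophosphocholine. The knockout removes a floxed exon through Cre under the human skeletal actin promoter, so that other cell types of the muscle are expected to keep the gene. For its force, glucose and fasting tests the publication names floxed littermates as controls, and it calls the array controls WT. Against such littermates the knockout also differs by the Cre transgene. The publication reports that Cre alone left contraction, choline metabolites and phosphatidylcholine unchanged. The design names 5 mice per genotype for 2 arrays, and pooling of the RNA, or its reuse on the second array, is not stated in the labels. Array 1 had *Gde5* skKO RNA in Cy5 and WT RNA in Cy3, and array 2 had the dyes exchanged. Each log2 ratio is given as *Gde5* skKO over WT, followed by the standard error that the scanner software derived for that array. The p-values of that software describe error within an array and not the spread between mice, which 2 arrays cannot show. A probe was called higher or lower when its p-value was under 0.05 on both arrays with the same direction, and it was tested when each array gave it a signal well above background in 1 or both channels.

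The labels were checked on *Gde5* itself, which the array lists as *Prei4*. Its 3 probes at chr2:132221088-132221147, chr2:132221110-132221169 and chr2:132225539-132225598 (mm8) had log2 ratios of -2.59, -2.69 and -3.07 on array 1 and of -3.27, -3.24 and -3.29 on array 2. Another probe under that name, at chr2:132256048-132256107, had ratios of -0.05 and -0.47. The place of these probes relative to the deleted exon was not analysed here. All 14 skeletal muscle markers, among them *Acta1*, *Ckm* and *Myh4*, were well above background. None was called higher or lower, against 1.58% and 1.73% of all tested genes.

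Chemokine and receptor probes were detected at about the rate of probes in general. Signals well above background were found for 26 of the 63 probes in WT RNA and 34 in *Gde5* skKO RNA on array 1, and for 28 and 25 on array 2. The genotype with more detected probes was thus the one labelled with Cy5 on each array, as it was over all probes, where 44.8% and 52.6% were detected on array 1 and 46.7% and 43.9% on array 2. A total of 29 chemokine and receptor probes for 25 genes could be tested, 46.0% of them against 46.4% of all probes, and 23 were well above background in all 4 channels. Another 29 probes lacked a signal well above background in all channels, and for 21 genes this held for every probe.

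Most detected probes belonged to ligands. Of the ligand probes, 24 of 43 could be tested, including 15 of 25 of the CC class and 8 of 15 of the CXC class. Of the receptor probes, 5 of 20 could be tested, and only *Cxcr7* and *Cxcr3* were well above background in all 4 channels. The ligands that never rose well above background included the neutrophil attractants *Cxcl2* and *Cxcl5*, the T-cell attractants *Ccl17* and *Ccl22*, and the macrophage inflammatory proteins *Ccl3* and *Ccl4*. The receptors that never did included *Ccr1*, *Ccr3*, *Ccr4*, *Ccr7*, *Ccr8*, *Ccr10* and *Cxcr6*. A signal below that limit gives only a bound and is not the absence of expression, since a dim probe can also belong to a gene expressed by few cells of the tissue.

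**Figure D1:**
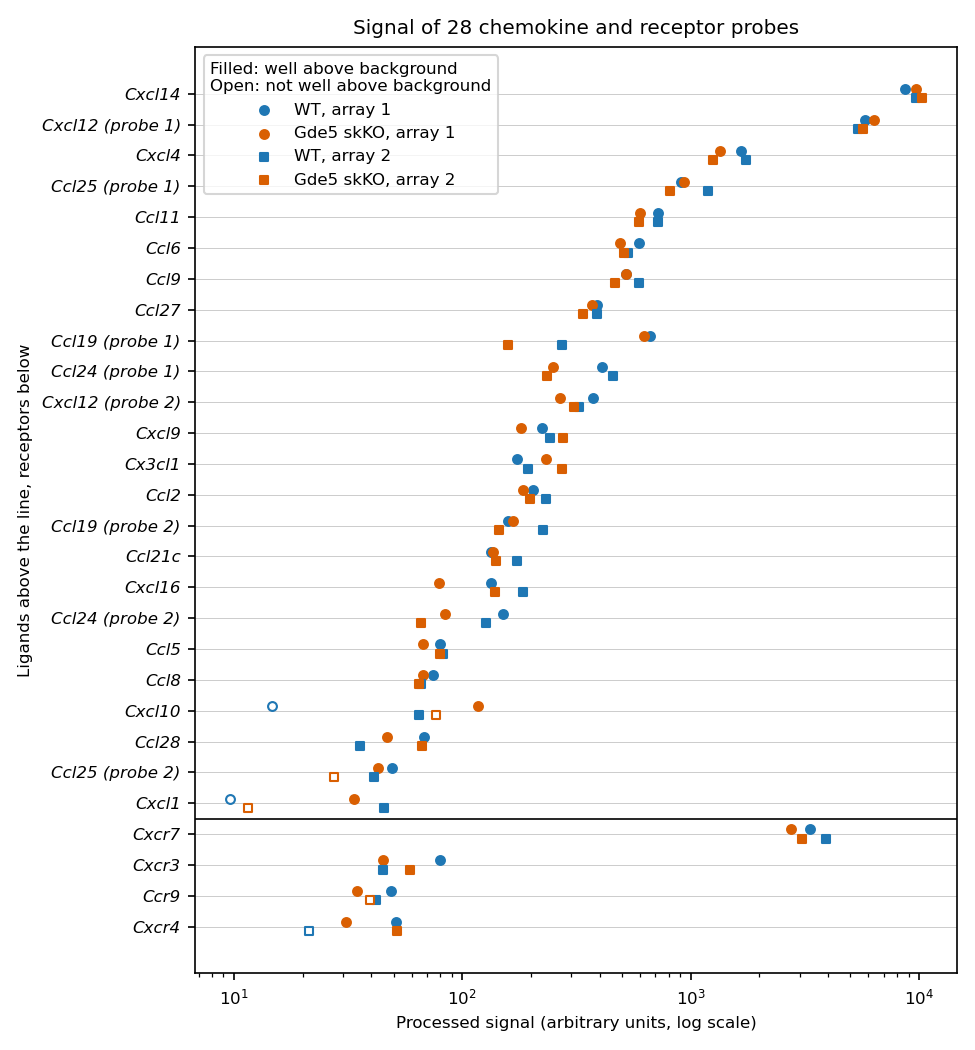
Processed signal (arbitrary units, log axis) of 28 tested probes in WT (blue) and *Gde5* skKO (orange) RNA on array 1 (circles) and array 2 (squares), filled where well above background. The *Cxcl14* probe lies between 8662 and 10345, whereas the receptor probes shown other than *Cxcr7* stay under 80. Signals of different probes are not comparable as levels.

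*Ccl24* was the only chemokine called, and it was lower in *Gde5* skKO muscle. Ccl24, or eotaxin-2, attracts eosinophils through Ccr3 and is made by macrophages of the resident, alternatively activated kind. Its brighter probe (chr5:135855242-135855301, minus strand, mm8) read 408 in WT and 250 in *Gde5* skKO RNA on array 1, and 456 and 235 on array 2. Its other probe (chr5:135855424-135855483) read 150 and 83.7 on array 1, and 127 and 65.9 on array 2. For each probe both WT signals lay above both *Gde5* skKO signals, whichever dye the RNA carried. The share of all tested probes separated in this way was not counted, here or for the genes below.

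The brighter *Ccl24* probe had log2 ratios of -0.71 ± 0.22 on array 1 (scanner p-value 0.00127) and -0.96 ± 0.23 on array 2 (3.39e-05), a mean of -0.83 or 1.78-fold lower. The other probe had -0.85 ± 0.28 (scanner p-value 0.00219) and -0.95 ± 0.33 (0.0036), a mean of -0.90 or 1.86-fold lower. The probes lie in the same gene and were read from the same RNA, so that they are not independent replicates. With another background correction (normexp with an offset) followed by loess, the mean ratios were -0.48 and -0.29. The added offset draws the ratios of dim probes towards 0 by construction, here and wherever such values are given below. For *Gde5*, the mean log2 ratio of a dim probe moved from -3.18 to -1.45 and that of a bright probe from -2.93 to -2.78. After this correction, the moderated test of limma over all tested probes gave adjusted p = 0.113 and 0.421 for *Ccl24*.

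No chemokine or receptor probe was called higher, and 2 of 29 were called lower. Over all 19094 tested probes the same rule called 1.49% higher and 1.58% lower. By gene, each taken by its brightest probe, 0 of 25 were higher and 1 was lower, against 1.58% and 1.73% of 13608 genes. With an unadjusted p under 0.05 in limma, 0 chemokine or receptor probes were higher and 5 were lower, namely both *Ccl24* probes and 1 probe each of *Cxcl4*, *Ccl19* and *Cxcr7*, against 4.07% higher and 4.02% lower of all tested probes. After adjustment 0 were higher and 0 lower, against 0.209% and 0.393%.

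Ratios of the other members were small or differed between the arrays. Outside *Ccl24*, only *Cxcl10* among the tested probes had a mean change above 1.5-fold, and 26 of 29 were within it. The *Cxcl10* value rests on a channel not well above background on each array, and with normexp and loess its mean log2 ratio was 0.27. Both arrays gave a ratio below 0 for 15 of the 29 probes (51.7%, against 24.5% of all tested probes), a ratio above 0 for 4 (13.8%, against 29.3%), and opposite signs for 10 (34.5%, against 46.2%). Among CC ligands, 10 of 15 probes were below 0 on both arrays and none was above 0 on both. The median of the mean log2 ratios was -0.17 over the 29 probes and 0.02 over all tested probes, and with normexp and loess it was -0.06 and 0.00.

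**Figure D2:**
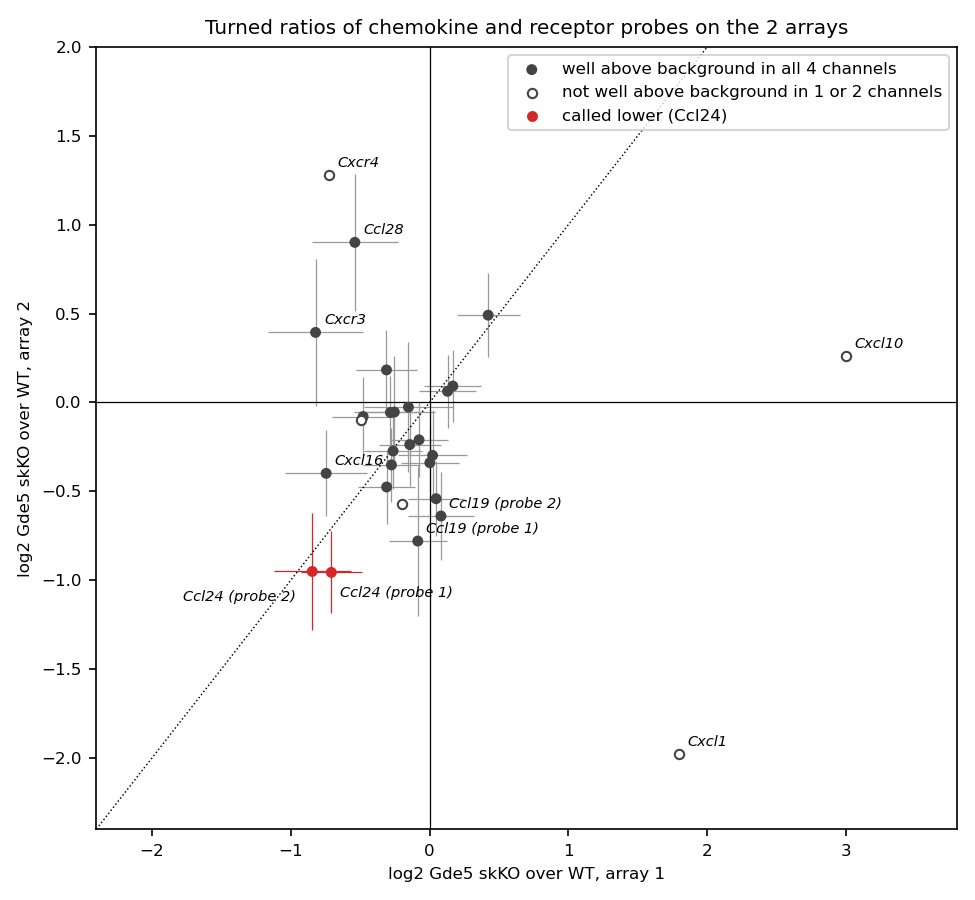
Log2 ratio of *Gde5* skKO over WT on array 1 (x axis) and array 2 (y axis) for 28 tested probes, with bars for the standard error of the scanner software where all 4 channels were well above background. Both *Ccl24* probes (red) lie near the dotted line of equality at -0.71 and -0.85 on array 1. *Cxcl1* lies at 1.80 and -1.98, and *Cxcl10* at 3.0 and 0.26.

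The brightest ligand probes differed little between genotypes. *Cxcl14*, a ligand expressed in many resting tissues, read 8662 in WT and 9732 in *Gde5* skKO RNA on array 1, and 9702 and 10345 on array 2 (log2 ratios 0.17 ± 0.20 and 0.09 ± 0.20). *Cxcl12*, the ligand of Cxcr4 and Cxcr7, read 5783 and 6327, and 5429 and 5671 (0.13 ± 0.20 and 0.06 ± 0.20). Both were slightly brighter in *Gde5* skKO RNA on each array, by less than the error, and the 95% intervals within an array reached from -0.23 to 0.57 and from -0.31 to 0.49 for *Cxcl14* and from -0.27 to 0.53 and from -0.34 to 0.46 for *Cxcl12*. A dimmer *Cxcl12* probe, which lies upstream at chr6:117140075-117140134, gave the other sign, with -0.48 ± 0.22 and -0.08 ± 0.22 (scanner p-values 0.0309 and 0.723). The probes of *Cxcl12*, which the array assigns to different transcripts, therefore differed in direction, and neither was called.

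*Cxcl4*, or platelet factor 4 (*Pf4*), is stored in platelets and is also expressed by some resident macrophages. It read 1669 in WT and 1347 in *Gde5* skKO RNA on array 1, and 1741 and 1252 on array 2, and both WT signals exceeded both *Gde5* skKO signals. Its log2 ratios were -0.31 ± 0.21 and -0.48 ± 0.21 (scanner p-values 0.134 and 0.0231), so that only array 2 passed. *Ccl11*, eotaxin-1, which shares Ccr3 with Ccl24, read 718 and 598 on array 1 and 720 and 596 on array 2. The signals of *Ccl11* were again separated by genotype. So were those of *Ccl2*, *Ccl6* and *Ccl27*, and those of *Cxcl14* with *Gde5* skKO above WT. The *Ccl11* ratios of -0.26 ± 0.21 and -0.27 ± 0.21 (scanner p-values 0.206 and 0.198) did not pass on either array. Neither *Ccr3* probe was well above background in any channel.

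*Ccl6* and *Ccl9*, neighbouring genes on chromosome 11 that are expressed by myeloid cells, did not pass on either array. *Ccl6* had log2 ratios of -0.28 ± 0.21 and -0.06 ± 0.21. *Ccl9* had 0.00 ± 0.21 and -0.34 ± 0.21. The injury-induced monocyte attractant *Ccl2* had the most spots, since its probe was printed 10 times on each array. Its log2 ratios over the spots ranged from -0.29 to 0.06 around a mean of -0.14 (SD 0.11) on array 1, and from -0.49 to -0.02 around -0.24 (SD 0.16) on array 2. A total of 9 and 10 of the 10 spots were below 0, but only 0 and 1 of them had a scanner p-value under 0.05. The spots of an array were read from the same RNA, so that they are not independent replicates. *Ccl2* read 204 in WT and 185 in *Gde5* skKO RNA on array 1, and 233 and 197 on array 2. The other ligands of this kind were dimmer, with *Ccl8* at -0.15 and -0.03, and *Ccl5* at -0.25 and -0.05.

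The homeostatic ligands of lymphoid tissue passed the threshold at most on array 2. *Ccl25*, the ligand of Ccr9, read 904 in WT and 934 in *Gde5* skKO RNA on array 1 but 1186 and 815 on array 2 (0.05 ± 0.20 and -0.54 ± 0.21, scanner p-values 0.819 and 0.0104). A dimmer *Ccl25* probe had -0.20 ± 0.35 and -0.57 ± 0.51. *Ccl19*, a ligand of Ccr7, had -0.08 ± 0.21 and -0.78 ± 0.42 at its brighter probe, and 0.08 ± 0.23 and -0.64 ± 0.25 (scanner p-values 0.725 and 0.00935) at the other. The brighter *Ccl19* probe also read differently in WT RNA on the arrays, at 661 and 273. *Ccl21c*, the other Ccr7 ligand, had 0.02 ± 0.25 and -0.30 ± 0.26, and the skin-associated *Ccl27* had -0.08 ± 0.21 and -0.21 ± 0.21. *Ccr7* was not well above background, and *Ccr9* was dim, between 34.7 and 48.9, with ratios of -0.50 ± 0.37 and -0.10 ± 0.44.

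The membrane-anchored chemokines *Cx3cl1* and *Cxcl16* had ratios of opposite direction, and neither was called. *Cx3cl1*, or fractalkine, made by endothelial cells, read 174 in WT and 233 in *Gde5* skKO RNA on array 1, and 194 and 272 on array 2. Its log2 ratios of 0.42 ± 0.23 and 0.49 ± 0.24 (scanner p-values 0.0613 and 0.0373) had the highest mean among members measured in all 4 channels, and the genotypes did not overlap. Its receptor *Cx3cr1* was detected only in *Gde5* skKO RNA on array 1, by 1 of 2 probes. That channel carried Cy5 and had the largest share of detected probes over all probes (52.6%). *Cxcl16*, which binds Cxcr6, read 133 and 79.4 on array 1, and 184 and 140 on array 2 (-0.74 ± 0.30 and -0.40 ± 0.24, scanner p-values 0.0117 and 0.0989). *Cxcl16* signals overlapped between genotypes across the arrays, since the *Gde5* skKO value on array 2 exceeded the WT value on array 1. With normexp and loess, the mean log2 ratio moved from 0.46 to 0.17 for *Cx3cl1* and from -0.57 to -0.13 for *Cxcl16*.

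The interferon-induced ligands of Cxcr3 gave no repeated difference. *Cxcl9* read 224 in WT and 181 in *Gde5* skKO RNA on array 1, and 242 and 275 on array 2 (-0.31 ± 0.22 and 0.18 ± 0.22). *Cxcl10* read 14.6 and 117 on array 1, and 64.4 and 77.1 on array 2, with log2 ratios of 3.0 ± 0.59 and 0.26 ± 0.48 (scanner p-values 4.02e-07 and 0.591). *Cxcl10* was well above background in the Cy5 channel only on both arrays. Its ratio was above 0 on both arrays. The ratio of the neutrophil attractant *Cxcl1* changed sign with the dye, with log2 values of 1.80 ± 0.70 on array 1 and -1.98 ± 0.71 on array 2 (scanner p-values 0.00988 and 0.00536), but it too was well above background in Cy5 only, and with normexp and loess the values were 0.14 and -0.11. Over all probes, 757 were detected in Cy5 only on both arrays against 80 in Cy3 only, and 1.69% of tested probes passed on both arrays with opposite directions. *Ccl28*, a mucosal ligand, also changed sign, with -0.54 ± 0.31 and 0.90 ± 0.38.

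Of the receptor probes, that of *Cxcr7* (now *Ackr3*) gave the brightest signal. It read 3315 in WT and 2741 in *Gde5* skKO RNA on array 1, and 3929 and 3080 on array 2. The WT signals exceeded both *Gde5* skKO signals, and the log2 ratios were -0.27 ± 0.21 and -0.35 ± 0.21 (scanner p-values 0.183 and 0.0894). *Cxcr3*, a receptor of activated T cells, read 79.6 and 45.1, and 44.9 and 59.1, with ratios of opposite sign (-0.82 ± 0.34 and 0.39 ± 0.41). *Cxcr4*, the receptor of Cxcl12, also changed sign (-0.73 ± 0.43 and 1.28 ± 0.62). Its WT signal on array 2 was not well above background, and with normexp and loess the values were -0.09 and 0.05. The other *Cxcr4* probe was not well above background in any channel. The monocyte receptor *Ccr2* read 36.1 in WT and 115 in *Gde5* skKO RNA on array 1 (scanner p-value 3.94e-05), but 19.5 and 18.7 on array 2. Of these *Ccr2* signals, only that of *Gde5* skKO RNA on array 1 was well above background, in the Cy5 channel that detected the most probes overall on the arrays. No receptor passed on both arrays with the same direction.

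Among the genes around the receptors, 1 was called in each of the lists for signalling and for chemokine induction. Among 22 tested genes of 30 for receptor signalling, from G protein subunits to arrestins and Rac, 1 was called higher and none lower, against 1.58% and 1.73% of all tested genes, with a median log2 ratio of -0.03 against 0.01 over all tested genes. The gene called was *Rgs2*, a regulator that shortens G protein signalling, at 1260 in WT and 2723 in *Gde5* skKO RNA on array 1, and 1574 and 2407 on array 2 (1.11 and 0.61, scanner p-values 1.1e-06 and 0.00383). Among 19 tested genes of 28 for chemokine-inducing cytokines, their receptors and NF-kB, only *Tnfaip3*, which restrains NF-kB, was called, at 508 and 753, and 529 and 1005 (0.57 and 0.93, scanner p-values 0.00759 and 3.7e-05). The inducers *Tnf*, *Il1a*, *Il1b* and *Ifng* did not rise well above background, and the NF-kB subunits *Nfkb1* (0.22 and 0.08) and *Rela* (-0.07 and 0.30) were not called, and the median of this list was 0.09. None of 6 tested atypical receptors was called, and *Gpr182*, which endothelial cells express, had -1.87 and -0.16.

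**Figure D3:**
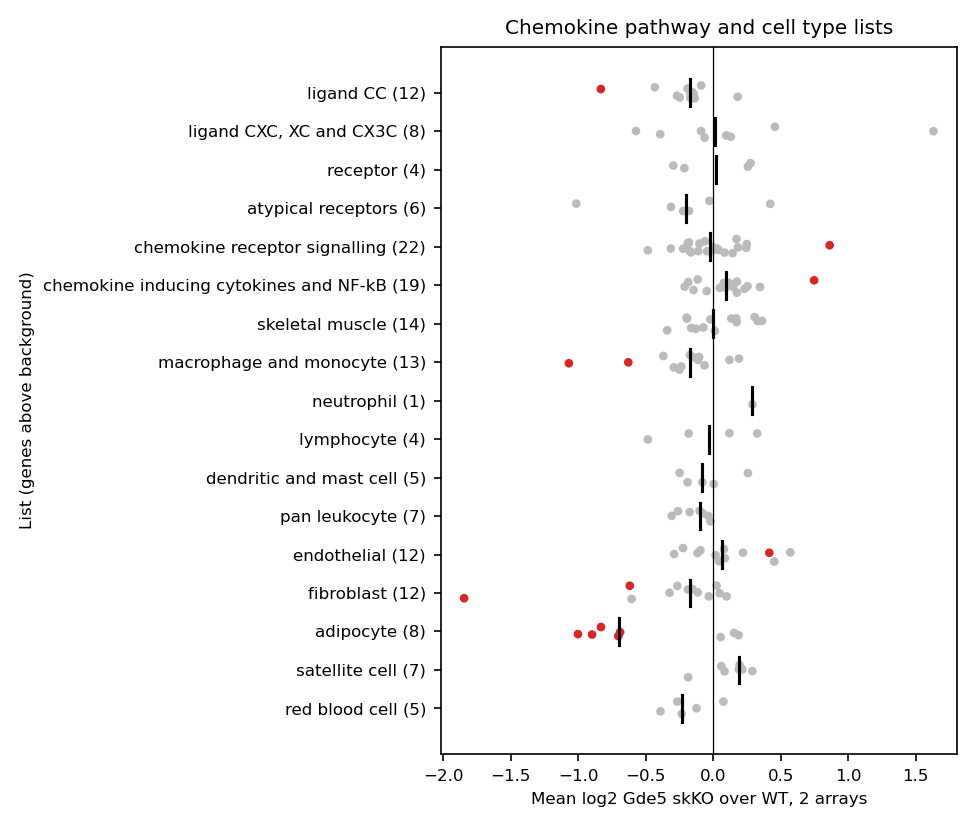
Mean log2 ratio of *Gde5* skKO over WT (x axis) of tested genes by list (y axis, number of genes shown in parentheses), 1 probe per gene, with genes called on both arrays in red and list medians as black lines. The red CC ligand is *Ccl24* at -0.83, and the adipocyte list has a median of -0.70.

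Since whole muscle was measured, fewer cells of a type and less RNA per cell cannot be told apart. Markers of other cells were therefore read beside *Ccl24*. Of 18 macrophage and monocyte markers, 13 were tested, and 8 of them (61.5%, against 25.2% of all tested genes) were below 0 on both arrays and 2 above 0 on both. Of these markers 2 were called lower (15.4%, against 1.73%) and none higher, and the median log2 ratio was -0.17, against 0.01 over all tested genes. The called genes were *Lyve1*, a hyaluronan receptor of resident macrophages and lymphatic vessels, at 243 in WT and 169 in *Gde5* skKO RNA on array 1, and 251 and 152 on array 2 (-0.53 and -0.73, scanner p-values 0.0171 and 0.00174), and *Timd4*, a receptor by which resident macrophages take up dying cells, at 51.7 and 27.0, and 44.8 and 19.5 (-0.94 and -1.20, scanner p-values 0.027 and 0.0459). *Timd4* was not well above background in *Gde5* skKO RNA on array 2. With normexp and loess, the mean log2 ratio of *Lyve1* was -0.32, that of *Timd4* was -0.12 and the median of the macrophage list was -0.09. *Folr2*, another marker of resident macrophages, was not called (-0.39 and -0.35, scanner p-values 0.0725 and 0.103), nor were *Adgre1*, *Csf1r*, *Mrc1* and the complement genes *C1qa*, *C1qb* and *C1qc*.

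The signal of the macrophage list was summed over all 18 genes, tested or not. The sum in *Gde5* skKO RNA was 0.978 of that in WT RNA on array 1 and 0.966 on array 2. *Ly6c1*, the brightest gene and one that endothelial cells also express, made up the larger part of it. Over the tested genes alone, without *Ly6c1*, the sum was 0.899 and 0.803 of WT. Most of it was *Lyz2* (-0.13 and -0.34), so that the sums describe mainly these 2 genes. *Itgam* did not rise well above background. Among 8 pan-leukocyte markers, 7 were tested and none was called, against 1.58% higher and 1.73% lower of all tested genes. *Ptprc* had -0.38 and 0.18. Among 18 lymphocyte markers only 4 were tested, among 10 neutrophil markers 1, and none was called in either list, against the same shares. The part of these cells in the *Ccl24* result was not tested.

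**Figure D4:**
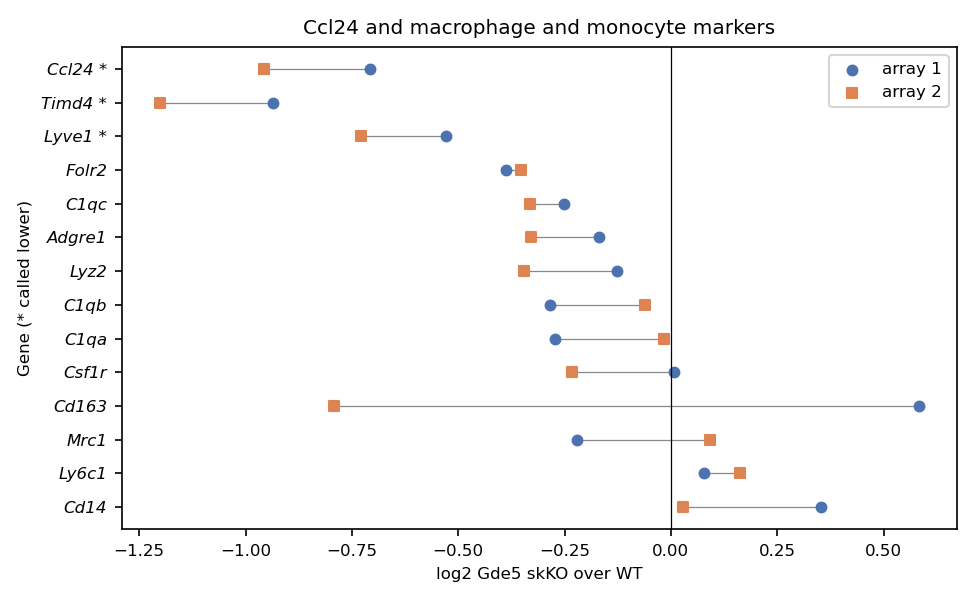
Log2 ratio of *Gde5* skKO over WT (x axis) on array 1 (circles) and array 2 (squares) for the 13 tested macrophage and monocyte markers and for the brighter *Ccl24* probe, with genes called lower marked by an asterisk. *Ccl24*, *Timd4* and *Lyve1* lie at or below -0.53 on both arrays, and *Cd163* lies at 0.58 and -0.79.

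Markers of tissue cells were also called. Among adipocyte markers 5 of 8 tested genes were lower (62.5%, against 1.73% of all tested genes), with a median of -0.70 that was -0.33 with normexp and loess. They were *Retn*, *Cfd*, *Plin1*, *Cidec* and the hormone *Adipoq*, which read 824 in WT and 420 in *Gde5* skKO RNA on array 1, and 863 and 423 on array 2. *Fabp4*, the brightest gene of that list and one that vessel cells share, was not called (0.13 and -0.02). *Lpl* (0.23 and 0.08) and *Lipe* (0.27 and 0.10) were above 0 on both arrays and were not called either. Among fibroblast markers 2 of 12 were lower (16.7%, against the same 1.73%), *Mfap4* (-1.58 and -2.11) and *Fbln1* (-0.58 and -0.65), while *Col1a1* was not called (-0.12 and 0.05). With normexp and loess, the mean log2 ratio of *Mfap4* was -0.72 and that of *Fbln1* was -0.32. Among endothelial markers 1 of 12 was higher, against 1.58% of all tested genes, the VEGF receptor *Kdr* (0.43 and 0.40). No satellite cell or red blood cell marker was called, nor any of 5 tested markers of dendritic and mast cells. The part of these cell types in the chemokine values was not tested either.

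By chromosome, members were most numerous on 11, 5 and 9. Chromosome 11, where the monocyte attractants and macrophage inflammatory proteins are grouped, held 17 probes for 14 genes. Of these probes 7 were tested and none was called, against 1.49% higher and 1.58% lower of all tested probes. Chromosome 5 held 12 probes for 10 genes, of which 6 were tested, namely both *Ccl24* probes and the probes of *Cxcl4*, *Cxcl9*, *Cxcl10* and *Cxcl1*. Chromosome 9 held 12 probes for 9 genes, mostly CC receptors, of which 1 was tested. *Ccl24* lies apart from the CXC genes of chromosome 5, and none of those was called.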

How the data were processed

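The authors extracted the scans with Agilent Feature Extraction (9.5.3.1 in the file headers). Each deposited file holds the log10 of Cy5 to Cy3 signal per spot, background-subtracted and dye-normalized by the authors. The authors' software also gave the p-value of each ratio from its error model, and flags for signal well above background. The intensity of each spot and its local background is deposited for both channels. The series table of the authors repeats the log10 ratio.

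Here these ratios were put on the log2 scale with *Gde5* skKO in the numerator, and spots of the same probe were averaged. Control spots were not used. Spots with outlier marks and spots whose local background exceeded 2 times the array's median were also left out. This removed 172 (array 1) and 200 (array 2) of 43379 non-control spots, none of them for a chemokine or receptor. No member spot was saturated. Depth does not apply to arrays, and their number (2, on 1 slide) limits the precision. The call needed p under 0.05 on both arrays. As an alternative, limma 3.58.1 in R 4.3.3 was fitted across all tested probes after normexp (offset 50) and loess, with Benjamini-Hochberg adjustment. The scripts were tested on simulated data.

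The members and the gene lists were chosen with earlier results of these data known, and the lists from general knowledge. Genes were named by rule as called, or as the 6 brightest ligands and up to 6 brightest receptors with signal in all 4 channels. They were also named when a tested probe changed at least 1.5-fold on both arrays in the same direction. This rule gave *Ccl24*, *Cxcl14*, *Cxcl12*, *Cxcl4*, *Ccl25*, *Ccl11*, *Ccl6*, *Cxcr7* and *Cxcr3*. The other members and the list genes were chosen for the text after their values were seen, so that the tested members have values, except 1 that is counted but not reported here by its own values. Probe positions are those of the array annotation (mm8), and 60 of 63 probes had a current symbol by accession in RefSeq, as *Cxcr7*, *Cxcl4* and *Ccl27* show, now *Ackr3*, *Pf4* and *Ccl27a*.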

Additional observations from a re-analysis of the deposited data

How the results depend on the processing

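The counts of 0 probes and genes higher and of 2 probes and 1 gene lower were the same with no filter, with the stricter filter and with p under 0.01, where 0.780%, 1.65% and 0.812% of the probes each setting tested were lower. They were also the same with normexp and loess ratios, with loess and no background correction, and with the series table. In these settings the scanner p-values were kept, so that little beyond the direction could change. With the scanner p-values adjusted on each array, 1 chemokine probe was lower, against 0.461% of all tested probes. With limma and no adjustment, 5 probes and 4 genes were lower, and with adjustment 0 probes and 0 genes were, against 4.43% and 0.478% of all tested genes. Leaving out either array, so that the rule applied to 1 array alone, gave 5 to 6 probes lower and 3 to 3 probes higher, and 3 to 4 genes lower and 3 to 3 genes higher. Over all tested probes that rule gave 5.26% to 6.88% lower and 7.17% to 7.88% higher, and over all tested genes 5.31% to 6.69% and 6.85% to 7.14%. With the flag for positive and significant signal in place of that for well above background, 51 probes counted as detected in place of 29. Of the 29 tested probes, 29 kept the sign of their mean ratio with loess and no background correction, and 26 with normexp and loess. In each setting 29 were nearer 0, which background left in the signal or an added offset brings about by construction. A slide block could not be fitted, because both arrays lie on 1 slide. Each ratio already pairs the genotypes within an array.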
